A study of Mus musculus with 48 samples.

Results

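The genes described here are 38 lysosomal hydrolases, their protein helpers and lysosomal membrane proteins, out of 35870 genes counted in the series. They were chosen by name for their known role, with earlier results of these data known, and all 38 were found in the count table. By role they are 5 membrane proteins (Lamp1, Lamp2, Cd63, Cd68, Scarb2), 2 further membrane proteins of which one is a channel (Mcoln1, Cln3), 3 activators and chaperones (Grn, Psap, Gm2a), 7 sphingolipid hydrolases (Hexa, Gla, Glb1, Galc, Arsa, Asah1, Smpd1) and 12 glycan hydrolases. The glycan hydrolases are 7 enzymes of glycosaminoglycan breakdown (Gusb, Galns, Arsb, Naglu, Sgsh, Ids, Idua) and 5 of glycoprotein and glycogen breakdown (Man2b1, Manba, Fuca1, Neu1, Gaa). The remaining members are 3 genes of sterol handling (Npc1, Npc2, Lipa), 2 proteases and a thioesterase (Tpp1, Lgmn, Ppt1), 2 phosphatases (Acp2, Acp5) and the transcription factor Tfeb.

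RNA was sequenced from 48 samples of wild-type male C57BL/6 mice. The samples were 24 of brain microglia, sorted as Cd11b+ and Cd45+ cells, and 24 of whole spinal cord, which mixes neurons, glia, vessels and the few microglia of that tissue. For each tissue 8 libraries were made in each of 3 groups: young mice of 3 months and old mice of 23 months, both given vehicle, and old mice of 23 months given a Csf1r inhibitor for 5 days and then left for 7 days without it. The inhibitor removes microglia, which depend on Csf1r signalling, and the cells seen after its withdrawal are those that repopulate the brain, so this group is called old repopulated. No young group given the inhibitor and no old group sampled before recovery was analysed here. Whether the 8 libraries of each group were prepared from 8 different animals is not stated, and the p-values therefore rest on the spread among libraries, which may be technical. In both tissues a lower level of a transcript can come from fewer cells of a type or from less RNA per cell, and these cannot be told apart.

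Lysosomes are the acidic compartments in which cells degrade what they take up and what autophagy delivers. Each hydrolase removes one kind of bond, so that a sphingolipid or a glycosaminoglycan is taken apart by enzymes acting in turn, and loss of a single enzyme or helper causes a storage disease, often with disease of the brain. Microglia, the resident macrophages of the brain and spinal cord, take up myelin, dying cells and synapses and rely on this machinery. Tfeb and its relatives bind E-box motifs near the start of many lysosomal genes and raise their transcription.

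The promoter sequence of each member was therefore searched for the E-box. Sequences came from RefSeq (GRCm38.p6), as windows of 250 bases before to 50 bases after the annotated start, and 35 of the 38 members matched an entry. The letters CACGTG, which read the same on both strands, lay in 10 of the 35 windows (28.6%), against 2187 of 27025 windows of all genes (8.09%). The longer TCACGTG, searched on both strands and always containing the shorter motif, lay in the same number of members (10, 28.6%) and in 1160 of all windows (4.29%). The palindrome TCACGTGA, which contains both, lay in 3 members (Cln3, Gla and Mcoln1, 8.57%) and in 304 of all windows (1.12%). Lamp1 with 4 E-boxes, Gla and Mcoln1 with 2, and 3 members with 1 E-box that rose in repopulated microglia are shown to let the spacing be seen, with the E-box in capitals and each sequence read 5′ to 3′ along the gene's strand. They are Lamp1 at chr8:13159085-13159166 (plus strand), Gla at chrX:134601179-134601247 (minus strand), Mcoln1 at chr8:3500433-3500494 (plus strand), Glb1 at chr9:114401015-114401050 (plus strand), Naglu at chr11:101070006-101070041 (plus strand) and Lgmn at chr12:102439121-102439156 (minus strand).
Lamp1: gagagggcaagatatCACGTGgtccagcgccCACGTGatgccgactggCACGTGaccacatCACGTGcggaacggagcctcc
Gla: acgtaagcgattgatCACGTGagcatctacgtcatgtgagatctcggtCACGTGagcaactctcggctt
Mcoln1: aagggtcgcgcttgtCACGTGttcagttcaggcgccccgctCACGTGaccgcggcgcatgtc
Glb1: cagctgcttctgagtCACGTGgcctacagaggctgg
Naglu: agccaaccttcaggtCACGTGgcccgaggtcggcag
Lgmn: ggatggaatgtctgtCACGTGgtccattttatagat

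Lamp1 held 4 E-boxes, beginning 61, 45, 28 and 15 bases before the start, and Gla held 2, beginning 227 and 194 bases before it. In Mcoln1 the E-boxes began 71 and 45 bases before the start. The single E-box of Glb1 began 48 bases, that of Lgmn 49 bases and that of Naglu 73 bases before the start. All these distances are from the RefSeq start. GENCODE M21 places the start elsewhere for Mcoln1 (3500457), Naglu (101070012) and Lgmn (102439813), among others. Measured from those starts, the E-boxes of Naglu and Lgmn and the second of Mcoln1 lie inside the gene. A match describes the letters in the window and shows neither binding nor a cause of any change below. E-boxes were as frequent among the members that later prove higher in repopulated than in old microglia (5 of 18, 27.8%) as among the other members with a promoter entry (5 of 17, 29.4%). The longer TCACGTGA lay in 0 of these 18 and in 3 of these 17 (17.6%). These counts are small, and the difference was not tested.

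Libraries held between 15909868 and 34496308 counted reads. The sorted cells carried the defining genes of microglia, with Csf1r at a mean of 19880 CPM (counts scaled to the library's effective size) in the young group, and the neuronal gene Snap25 at 1.38 CPM against 2341 in young cord. Transcripts of other myeloid cells were present too: 10 neutrophil marker genes summed to a median of 490.6 CPM in young, 4560 in old and 1306 in old repopulated microglia. Library 6 of the old repopulated cord group stood apart, with the fewest genes detected in its group (22326), 2.87% of reads on ribosomal protein genes against a group median of 1.05%, and a summed member level of 3871 TPM (transcripts scaled by length and library total) against a group median of 5964. Results of the cord are therefore also given without it. Unless stated otherwise, levels below are CPM given as mean ± SD of 8 libraries, differences are log2 fold changes ± SE, and adjusted p-values come from edgeR's quasi-likelihood test with Benjamini-Hochberg adjustment over all genes tested. A member is said to have risen or fallen where the adjusted p was under 0.05. Where members are counted at an unadjusted p, the share of all genes at that threshold is not reported here. Gene positions are those of GENCODE M21 on GRCm38.

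In young microglia the 38 genes summed to 27690 ± 575 TPM, a scale per transcript length on which genes can be compared with each other. In young cord they summed to 5203 ± 98.8 TPM. Most of the microglial sum lay in 3 genes: Psap, the precursor of the saposins that present sphingolipids to their enzymes, at 5837 TPM (21.1%), Lgmn, an asparaginyl endopeptidase, at 5411 TPM (19.6%), and Grn, the progranulin precursor, at 3898 TPM (14.1%). Cd68, a macrophage membrane protein, followed at 2380 TPM, Hexa, a hydrolase of GM2 ganglioside, at 1714 TPM, and Lamp1, a main structural membrane protein, at 1628 TPM. The lowest levels were those of Galc at 22.4 TPM, Gla at 7.06 TPM and Acp5 at 0.749 TPM. In cord, Psap led with 1805 TPM (34.7%), before Lamp1 with 751 TPM (14.4%), Gaa, the acid alpha-glucosidase that degrades glycogen, with 345 TPM, and Ids, the iduronate sulfatase, with 218 TPM. In old repopulated microglia the order of the leading genes differed, with Psap at 6943, Grn at 5606 and Lgmn at 4597 TPM.

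Young microglia held more transcript than young cord for 35 of the 38 members and less for 2, while 35.4% of all genes tested were higher and 48.9% were lower. Brain against cord and sorted cells against whole tissue cannot be told apart in these differences. The median difference was 2.92 for the members and -0.48 for all genes tested. The largest differences were those of Cd68 (8.49), Grn (6.51), Man2b1, the lysosomal alpha-mannosidase (6.30), Lgmn (5.75) and Hexa (5.41). Glycan hydrolases had a median difference of 3.03 (11 of 12 higher), sterol genes of 2.94 (3 of 3) and sphingolipid hydrolases of 2.21 (6 of 7). Ids was lower in microglia (-1.02 ± 0.09, adjusted p = 5.59e-14). Gla, the alpha-galactosidase that degrades globosides, was lower too (-0.42 ± 0.11, adjusted p = 0.000753), but this difference lay near the median of all genes. Mcoln1, the lysosomal calcium channel, and Gaa gave small positive values here (0.23 and 0.42) that became negative under other scalings of the same libraries.

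**Figure D1:**
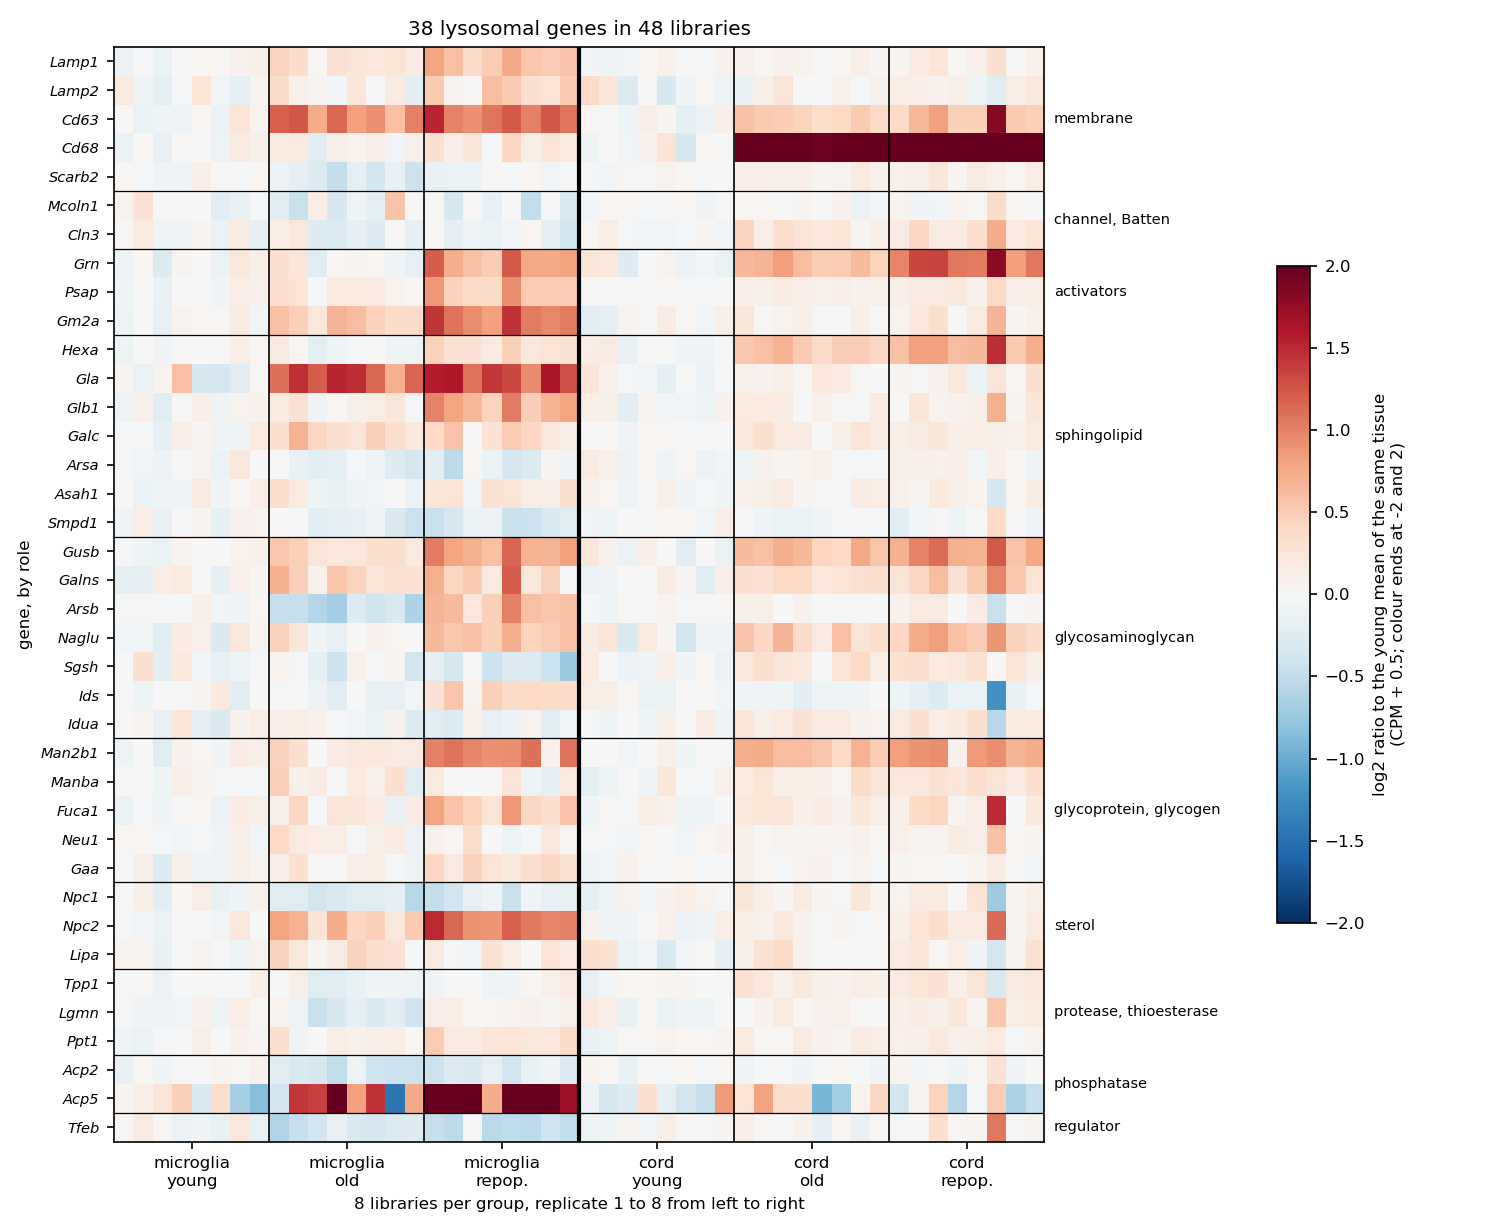
Level of each of the 38 genes (lines, ordered by role) in each of the 48 libraries (columns, ordered by group), as the log2 ratio of CPM + 0.5 to the mean of the young libraries of the same tissue, with colours ending at -2 and 2. The old and old repopulated microglia show both higher and lower genes, the cord shows Cd68 above the young level in every old and old repopulated library, and cord library 6 of the old repopulated group differs from its neighbours over many genes.

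Old microglia differed from young microglia in both directions. Of the 38 members, 9 rose and 6 fell with age, where 11% of all genes tested rose and 10.7% fell. The median difference was 0.09 for the members and -0.01 for all genes tested. The 9 that rose were Gla, Cd63, Npc2, Gm2a, Galns, Galc, Gusb, Lamp1 and Lipa, and the 6 that fell were Arsb, Tfeb, Acp2, Npc1, Scarb2 and Lgmn. For 7 members the 8 old and 8 young libraries did not overlap, as for 7.16% of all genes tested.

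Among the membrane proteins, Cd63, a tetraspanin of late endosomes and lysosomes (chromosome 10, 128900989 to 128912822, plus strand), changed most with age. Its level had a lowest, median and highest value of 191.5, 204.8 and 252.5 CPM in the young libraries and of 319.8, 408.7 and 495.1 CPM in the old. Every old library was thus above every young one, a rise of 0.98 ± 0.09 (adjusted p = 9.78e-10). Lamp1 rose by 0.26 ± 0.06 (adjusted p = 0.00231). Scarb2, a membrane protein that also carries cargo to the lysosome, fell by 0.27 ± 0.06 (adjusted p = 0.000851). Cd68 averaged 1210 CPM in young libraries and 1271 CPM in old ones (0.07, adjusted p = 0.557), and Lamp2, Mcoln1 and Cln3 did not pass the test.

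Of the sphingolipid group, Gla (chromosome X, 134588149 to 134601125, minus strand) had the largest age difference of any member that passed the test. It spanned 6.75 to 13.4 CPM in young libraries with a median of 8.36, and 14.5 to 25.7 CPM in old libraries with a median of 20.4. The groups did not overlap, and the rise was 1.29 ± 0.14 (adjusted p = 3.77e-08) at a level that stayed the second lowest of all members. Galc, which removes galactose from myelin galactosylceramide, rose by 0.39 ± 0.08 (adjusted p = 0.000767). Gm2a, the activator that lifts GM2 ganglioside out of the membrane for hydrolysis, went from 367 ± 26.9 to 512 ± 51.6 CPM (0.48 ± 0.08, adjusted p = 3.82e-05). Psap gave 0.16 and did not pass the test. It did pass the DESeq2 test (0.20, adjusted p = 0.0406) and edgeR with total counts (0.19, adjusted p = 0.0222), but not on the TPM scales. The other sphingolipid hydrolases, Hexa, Glb1, Arsa, Asah1 and Smpd1, lay between -0.17 and 0.12 and did not pass the test.

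The glycan hydrolases were split. Arsb, the sulfatase of dermatan and chondroitin sulfate (chromosome 13, 93771630 to 93943016, plus strand), spanned 893 to 1019 CPM in young libraries with a median of 924. In old libraries it spanned 583 to 782 CPM with a median of 684, below every young library, a fall of 0.46 ± 0.08 (adjusted p = 3.4e-05). Gusb, the beta-glucuronidase, rose by 0.32 ± 0.07 (adjusted p = 0.00112), and Galns, another sulfatase of glycosaminoglycans, by 0.41 ± 0.13 (adjusted p = 0.019). None of the 5 enzymes of glycoprotein and glycogen breakdown passed the test, with a median of 0.15. Man2b1 (0.22) did pass the DESeq2 test (0.26, adjusted p = 0.0291). It also passed in the edgeR fits of only the 2 groups (0.23, adjusted p = 0.016) and with total counts (0.25, adjusted p = 0.0486), but not on the TPM scales. Over all 12 glycan hydrolases, 2 rose and 1 fell (median 0.12), against 2 risen and 0 fallen of the 7 sphingolipid hydrolases (median 0.01).

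The sterol genes also moved apart with age. Npc2, the soluble protein that hands cholesterol over to Npc1, spanned 618 to 796 CPM in young libraries (median 671) and 786 to 1168 CPM in old ones (median 960.5), with ranges that overlapped at their ends. It rose by 0.53 ± 0.09 (adjusted p = 1.9e-05), and Lipa, the acid lipase of cholesterol esters, rose by 0.26 ± 0.07 (adjusted p = 0.00804). On the log2(TPM + 1) scale Lipa did not pass limma's test (0.18, adjusted p = 0.0845). Npc1, the membrane partner that exports cholesterol, fell by 0.29 ± 0.07 (adjusted p = 0.00292). Tfeb fell by 0.34 ± 0.08 (adjusted p = 0.00204), the phosphatase Acp2 by 0.33 ± 0.06 (adjusted p = 0.000134) and Lgmn by 0.22 ± 0.06 (adjusted p = 0.00622).

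Markers of other myeloid cells moved with age in the same libraries. Of the 10 neutrophil genes 9 rose, with a summed level of 209.6 to 1002 CPM in young and 1981 to 8663 CPM in old libraries. All 8 monocyte genes rose, from sums of 75.8 to 215.1 CPM to sums of 512 to 1263 CPM, and 7 of 11 genes of border macrophages rose, from 161 to 403 CPM to 325 to 637 CPM. No gene of these lists was at 0. Of 12 microglial genes, 9 fell and 0 rose, with summed medians of 64070 CPM in young and 47390 CPM in old libraries. Reads on ribosomal protein genes averaged 2.11% in young, 3.10% in old and 5.08% in old repopulated libraries. The part of these differences in the values of the lysosomal genes was not tested. A fit without the old libraries 2 and 7 also counted 9 members risen and 6 fallen, and its share of all genes is not reported here. Library 7 had the lowest neutrophil and monocyte sums of the old group. The libraries with the highest, 8 for neutrophil and 4 for monocyte genes, stayed in. That fit therefore does not bear on these markers.

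**Figure D2:**
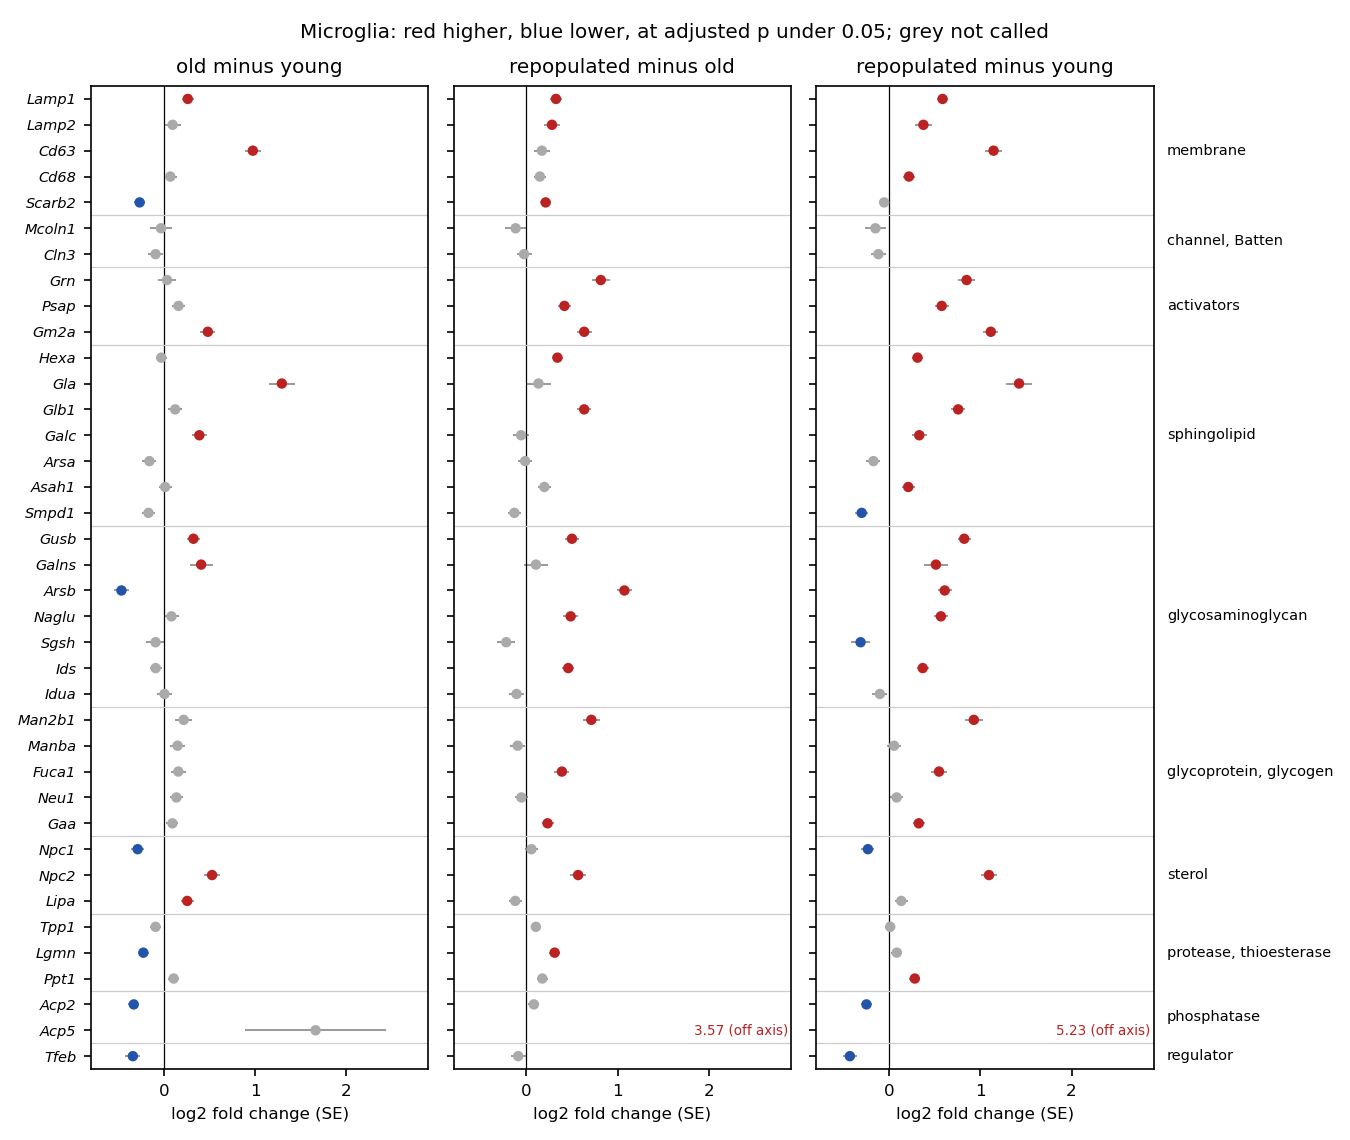
Log2 fold change (horizontal axis) of the 38 genes in microglia, by role, for old minus young, old repopulated minus old and old repopulated minus young, with bars of 1 SE, red for risen, blue for fallen and grey for not passing the test. In the second panel 18 genes are red and 0 are blue, and the values of Acp5 beyond the axis are written as 3.57 and 5.23.

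Members that passed the test between old repopulated and old microglia were all higher in the former. Members that fell appear when the libraries are scaled by total counts (8, where 19.3% of all genes fell) or by TPM (10, where 29.8% fell). Of the 38 members 18 rose and 0 fell, where 9.05% of all genes tested rose and 7.2% fell, and the median difference was 0.18 for the members and -0.04 for all genes. In the direction of a fall, edgeR gave 1 member at an unadjusted p under 0.05 (Sgsh), and the DESeq2 test gave 0 members after adjustment. The summed level of the 38 genes was 27560 ± 2240 TPM in old and 31170 ± 1943 TPM in old repopulated microglia. The old group is also the reference or the comparator in the age comparison, so that the age and repopulation differences share its 8 libraries.

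Arsb had the smallest adjusted p of the members. From its low old level, a median of 684 CPM, it reached a lowest, median and highest value of 1083, 1413 and 1892 CPM in the repopulated libraries. All 8 repopulated libraries were above all 8 old ones and above all 8 young ones, with a rise of 1.07 ± 0.08 over old (2.1-fold, adjusted p = 9.38e-11) and of 0.61 over young (adjusted p = 2.11e-07). Among the other enzymes of glycosaminoglycans, Gusb rose by 0.50 ± 0.07 (adjusted p = 7.64e-06). Naglu, the N-acetylglucosaminidase of heparan sulfate, rose by 0.48 ± 0.08 (adjusted p = 5.52e-05), and Ids by 0.46 ± 0.07 (adjusted p = 6.7e-06). Sgsh, the heparan sulfamidase, gave -0.22 (adjusted p = 0.137), Idua, the iduronidase, -0.11 and Galns 0.10, which did not pass the test.

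Of the enzymes of glycoproteins and glycogen, Man2b1 (chromosome 8, 85083270 to 85098282, plus strand) went from 2478 ± 229 CPM in old to 4057 ± 761 CPM in repopulated microglia. It lay between 4015 and 4583 CPM in 7 repopulated libraries and at 2251 CPM in library 7, within the range of the old group. The rise was 0.71 ± 0.10 (adjusted p = 2.59e-06). Fuca1, the alpha-fucosidase, rose by 0.39 (adjusted p = 0.00116) and Gaa by 0.23 (adjusted p = 0.0137). Manba, the beta-mannosidase, gave -0.10 and Neu1, the sialidase, -0.06, neither past the test.

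By substrate, 7 of 12 glycan hydrolases rose with repopulation (median 0.31), 2 of 7 sphingolipid hydrolases (median 0.13) and 1 of 3 sterol genes (median 0.05). None of these genes fell in this fit, and the classes were not tested against each other. With total-count scaling, Galc, Smpd1, Sgsh, Idua, Manba, Neu1 and Lipa fell, and on the TPM scale Arsa fell as well. Measured per transcript length, the glycan hydrolases summed to 2911 ± 269 TPM in old and 3755 ± 363 TPM in repopulated microglia, while the sphingolipid hydrolases summed to 2295 ± 203 and 2383 ± 78.9 TPM. The sterol genes summed to 1074 ± 59.1 and 1176 ± 64.4 TPM. Under the 4 scalings of the libraries, the median of the glycan class lay 0.35, 0.35, 0.35 and 0.27 above the median of all genes. That of the sphingolipid class lay 0.17, 0.17, 0.17 and 0.10 above it. The sterol class lay 0.09, 0.09, 0.10 and 0.01 above the median of all genes. A scaling shifts all genes of a library almost alike, so the unchanged order of the classes was largely set in advance.

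**Figure D3:**
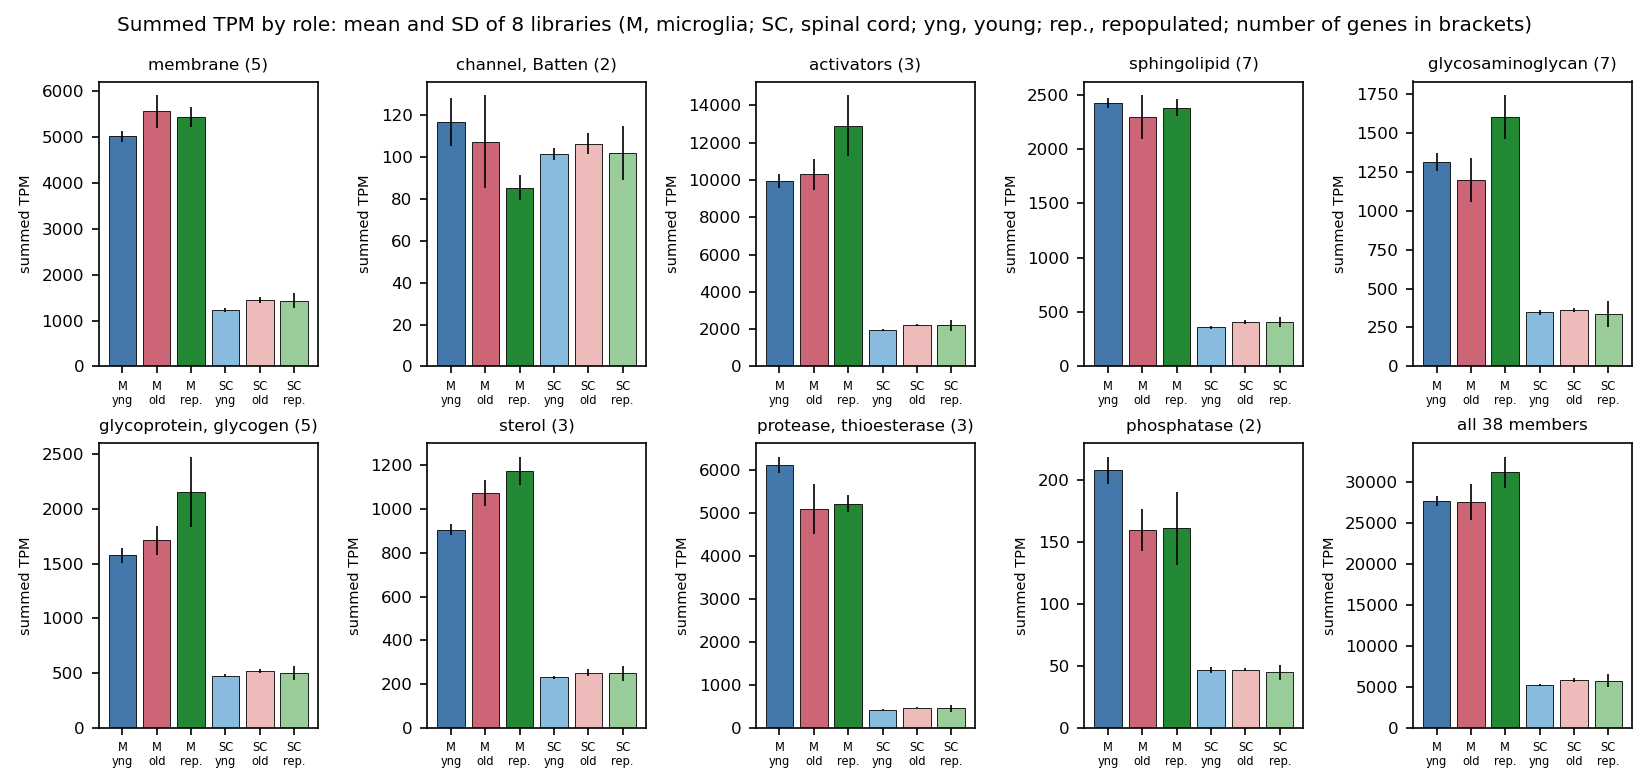
Summed level in TPM (vertical axes, from 0) of the genes of each role and of all 38 genes in the 6 groups, as bars of the mean of 8 libraries with the SD as error bars. Between old and old repopulated microglia the bars of the activators and of both glycan classes differ most, while the sphingolipid bars are nearly level.

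Within the sphingolipid class, the risen genes were Glb1, the beta-galactosidase of GM1 ganglioside and keratan sulfate, and Hexa. Glb1 spanned 155 to 200.3 CPM in old libraries (median 179.5) and 223 to 336 CPM in repopulated ones (median 273), without overlap (0.63 ± 0.08, adjusted p = 8.67e-07). Hexa rose by 0.34 ± 0.06 (adjusted p = 6.99e-05). Asah1, the acid ceramidase, gave 0.20 (adjusted p = 0.062) and Gla 0.13 (adjusted p = 0.596). The sulfatidase Arsa, Galc and the sphingomyelinase Smpd1 gave -0.01, -0.06 and -0.13, and did not pass the test. The level of Gla in repopulated microglia, 23.3 ± 3.93 CPM, was close to that in old microglia, 21.2 ± 3.78 CPM, and above every young library.

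All 3 activators and chaperones rose, and their sum went from 10310 ± 832 to 12910 ± 1646 TPM. Grn (chromosome 11, 102430315 to 102437048, plus strand) spanned 3138 to 4629 CPM in old libraries (median 3797) and 5230 to 8700 CPM in repopulated ones (median 6344). No repopulated library reached down to the old range, and the rise was 0.81 ± 0.10 (adjusted p = 3.05e-07), while young and old microglia differed by 0.03 (adjusted p = 0.871). Gm2a reached 794 ± 131 CPM, a further rise of 0.63 ± 0.08 (adjusted p = 1.26e-06) beyond that seen with age. Psap spanned 6332 to 8208 CPM in old and 8352 to 12360 CPM in repopulated libraries (0.42 ± 0.08, adjusted p = 0.000159).

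Npc2 was the sterol gene that rose with repopulation, to a lowest, median and highest value of 1255, 1384 and 1899 CPM, above all old libraries (0.57 ± 0.09, adjusted p = 1.33e-05). Npc1 (0.05) and Lipa (-0.12) did not pass the test. Lamp1 (0.32, adjusted p = 0.000389), Lamp2 (0.28, adjusted p = 0.0304) and Scarb2 (0.21, adjusted p = 0.0104) rose among the membrane proteins. Cd63 (0.17) and Cd68 (0.15) did not pass the test. Lgmn rose by 0.31 (adjusted p = 0.000399), which returned it to 6773 CPM from 5467 in old and 6388 in young microglia. Mcoln1, Cln3, Tpp1, the tripeptidyl peptidase, Ppt1, the palmitoyl thioesterase, Acp2 and Tfeb lay between -0.12 and 0.17 and did not pass the test. Lamp2 lost its call when any of 7 single libraries was left out.

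Acp5, the tartrate-resistant acid phosphatase of osteoclasts and activated macrophages (chromosome 9, 22126727 to 22135711, minus strand), gave the largest value and the widest spread. Its mean was 0.86 ± 0.41 CPM in the young libraries and 2.74 ± 2.55 CPM in the old, with 1 old library at 0. In repopulated libraries 1 to 8 it stood at 57.7, 5.03, 9.46, 1.77, 169.1, 6.22, 7.74 and 3.94 CPM. Libraries 1 and 5 were thus far above the other 6, which overlapped the old group. The difference from old was 3.57 ± 0.76 (adjusted p = 0.00112), 2.26 without library 5 (adjusted p = 0.0164) and 1.05 ± 0.59 without libraries 1 and 5 (adjusted p = 0.299), so that the call rests on these 2 libraries.

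The protease gene Ctsk, which osteoclasts also express and which is no member, was highest in the same 2 repopulated libraries, at 38.1 CPM in library 1 and 71.1 CPM in library 5 against 0.47 to 7.59 CPM in the other 6. It averaged 0.35 CPM in old microglia (5.45 ± 1.06, adjusted p = 0.000389). Of the other osteoclast genes listed, Calcr was at 0 in every microglial library and Oscar at 0 in all young and old ones. The summed level of the 6 osteoclast genes was 90.5 to 287 CPM in old and 37.7 to 168 CPM in repopulated microglia. The part of such cells in the Acp5 values was not tested.

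Libraries 1 and 5 were also the 2 highest of the repopulated group for 12 of the 18 members that rose and for 3 of the other 20. Among the 12 were Grn, at 8612 and 8700 CPM against 5230 to 6514 in the other 6 libraries, Psap, Arsb and Npc2. The same libraries had the lowest levels of the homeostatic microglial genes P2ry12 (1692 and 1564 CPM) and Cx3cr1 (4661 and 4966 CPM) of the group. Csf1r was lowest there too (15170 and 14900 CPM). Aif1, of the same marker list, went the other way and was highest there (479.6 and 419.3 CPM, 313.0 to 390.8 in the others). Without both libraries, 16 of the 18 members still passed the test, all but Acp5 and Lamp2. The differences from old were then 0.98 for Arsb, 0.69 for Man2b1, 0.66 for Grn, 0.53 for Glb1, 0.50 for Gm2a, 0.47 for Npc2 and 0.29 for Psap.

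The direction of some smaller differences, Scarb2 and Gaa among them, changed with how the libraries were scaled. The median difference of all genes tested moved from -0.04 to -0.21 when libraries were scaled by their total counts, and to -0.21 on the log2(TPM + 1) scale. The members then counted 15 risen and 8 fallen by total counts, where 4.12% of all genes rose and 19.3% fell. By TPM they counted 9 risen and 10 fallen, where 3.44% of all genes rose and 29.8% fell. All 18 risen members lay above the median of all genes in each of the 4 scalings, which a shift common to all genes leaves nearly unchanged. Grn, Gm2a, Glb1, Gusb, Arsb, Naglu, Man2b1 and Npc2 passed the test in the same direction in all 12 fits that did not leave out a single library.

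Markers of other cells fell with repopulation. All 11 border macrophage genes fell, to a summed level of 85.1 to 169 CPM, as did 8 of the 10 neutrophil genes (sums of 796 to 3657 CPM) and 5 of the 8 monocyte genes (sums of 247 to 618 CPM). Of the 12 microglial genes 3 rose and 1 fell, with a median sum of 49640 CPM in repopulated libraries. The part of these markers in the rises of the members was not tested.

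**Figure D4:**
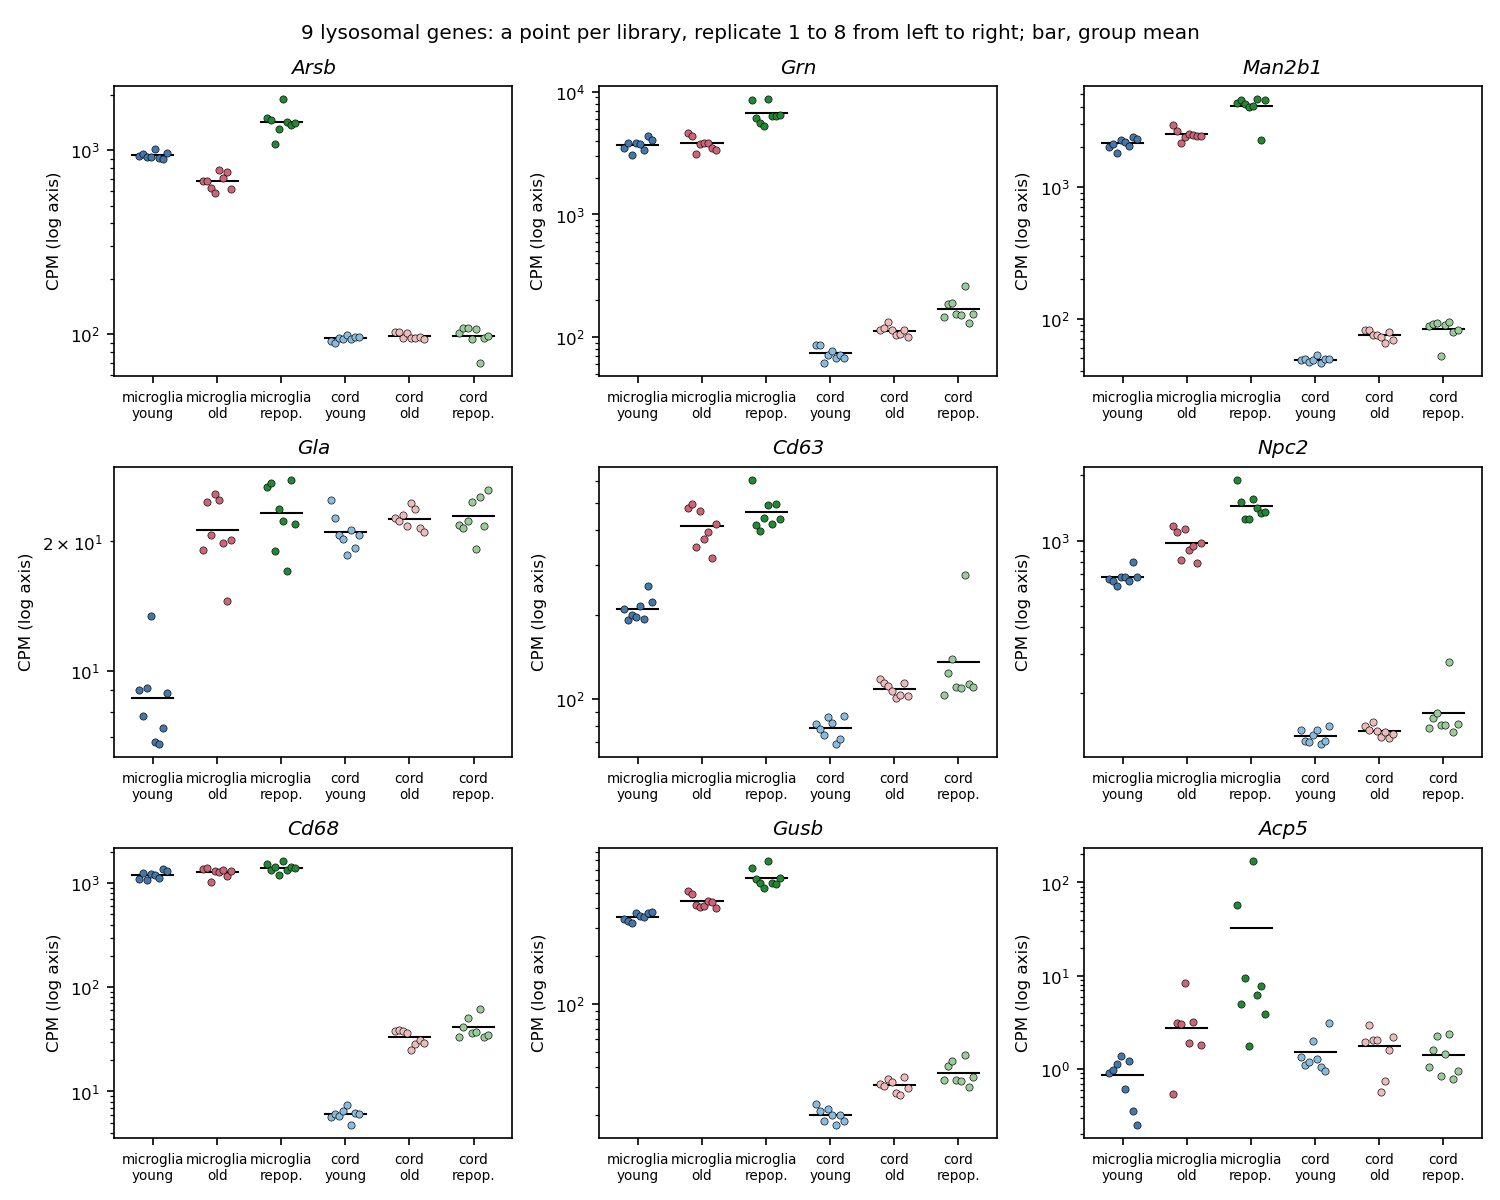
CPM (vertical log axes) of 9 of the genes in each library of the 6 groups, with a point per library and a bar at the group mean. Arsb, Grn, Npc2 and Gusb of repopulated microglia lie above all old libraries, Man2b1 has 1 low repopulated library, Acp5 has 2 high ones (the old microglial library at 0 cannot be drawn), and Cd68 in cord is higher in every old library than in any young one.

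Repopulated microglia of old mice also differed from young microglia. Of the 38 members, 23 were higher and 5 lower, where 16.1% of all genes tested were higher and 16.5% lower, and the medians were 0.32 for the members and -0.06 for all genes. This comparison shares its libraries with both comparisons above. For 16 members the groups did not overlap, as for 13.1% of all genes tested. Besides Acp5 (5.23 ± 0.84, adjusted p = 8.41e-06, and 2.73 without libraries 1 and 5), the largest differences were those of Gla (1.43), Cd63 (1.15), Gm2a (1.12), Npc2 (1.10), Man2b1 (0.93), Grn (0.85), Gusb (0.82) and Glb1 (0.76). Gm2a, Npc2, Gusb and Lamp1 rose in both steps, from young to old and from old to repopulated, and stood at 1479, 1774 and 2220 CPM in the case of Lamp1. Arsb, Scarb2 and Lgmn fell with age and rose with repopulation. Galns and Galc, higher with age and not passing the test with repopulation, were above young by 0.51 and 0.33.

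The 5 members lower than in young microglia were Tfeb (-0.43 ± 0.08, adjusted p = 7.98e-05), Sgsh (-0.31, adjusted p = 0.0151), Smpd1 (-0.30, adjusted p = 0.00117), Acp2 (-0.25, adjusted p = 0.00184) and Npc1 (-0.23, adjusted p = 0.0105). Tfeb stood at 77.4 CPM in young, 61.1 in old and 57.4 in repopulated microglia. By substrate, 8 of 12 glycan hydrolases were higher and 1 lower (median 0.44), 5 of 7 sphingolipid hydrolases higher and 1 lower (median 0.31), and 1 of 3 sterol genes higher and 1 lower (median 0.13). Scaling by total counts moved the median of all genes to -0.19. The members then counted 20 higher and 9 lower, where 12.1% of all genes tested were higher and 26.0% lower. TPM moved the median to -0.28. By TPM the members counted 14 higher and 15 lower, where 8.6% of all genes tested were higher and 42.7% lower. All 23 and all 5 stayed on their side of the median of all genes, which a shift common to all genes leaves nearly unchanged.

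A list of 53 other lysosomal genes, chosen by name, gave other counts. With age, 7 rose and 16 fell (median -0.02), with repopulation 9 rose and 4 fell (median -0.02), and against young microglia 12 were higher and 14 lower (median -0.02). Gnptab, which makes the mannose phosphate tag that sends hydrolases to the lysosome, rose with age by 0.85 (adjusted p = 5.76e-09) and again with repopulation by 0.47 (adjusted p = 0.000147). Igf2r, a receptor for that tag, rose with age by 2.15 (adjusted p = 7.99e-08). Ap1b1, an adaptor subunit of vesicles leaving the Golgi, fell with age by 0.46 (adjusted p = 1.42e-07), and Cd164, a sialomucin, fell with age by 0.56 and with repopulation by 0.68 (adjusted p = 1.51e-05 and 1.53e-06).

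Among the hydrolases and related proteins outside the 38, Ctsa, the protective protein of Neu1 and Glb1, rose with repopulation by 0.37 (adjusted p = 7.16e-05), and Plbd2, a phospholipase-like protein, by 0.49 (adjusted p = 1.16e-05). Mitf, a relative of Tfeb, gave 0.00 with age (adjusted p = 0.995) and -0.25 with repopulation (adjusted p = 0.162). Tfe3, a more abundant relative named here after its values were seen, fell with age by 0.29 (adjusted p = 0.000962) and gave -0.11 with repopulation (adjusted p = 0.289).

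In whole spinal cord, the members that passed the test with age all rose, and few of all genes tested fell. Of the 38, 12 rose and 0 fell between young and old cord, where 4.88% of all genes tested rose and 1.26% fell, and the median difference was 0.12 for the members and -0.01 for all genes. Smpd1, Ids and Acp2 gave small negative values (-0.07, -0.09 and -0.03). No member was lower at an unadjusted p under 0.05 in edgeR (0 of 38), and the DESeq2 test gave 0 lower as well. Glycan hydrolases made up 6 of the 12 (Gusb, Man2b1, Naglu, Galns, Sgsh and Manba, class median 0.19). The sphingolipid hydrolases Hexa and Galc rose (class median 0.10), and none of the 3 sterol genes passed the test (class median 0.12). The others that rose were Cd68, Grn, Psap and Scarb2. Cd68, Grn, Hexa, Gusb, Galns, Naglu and Man2b1 passed the test in all 10 fits that did not leave out a single library. Scarb2, Psap, Galc, Sgsh and Manba did not. Scarb2 lost its call without any of 16 single libraries, Manba without any of 10 and Sgsh without any of 6.

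Cd68 (chromosome 11, 69664213 to 69666153, minus strand) had a lowest, median and highest value of 4.76, 6.10 and 7.49 CPM in young cord and of 24.8, 33.7 and 39.1 CPM in old cord. Every old library was above every young one by far, a rise of 2.44 ± 0.13 (5.43-fold, adjusted p = 1.81e-12). Grn spanned 61.5 to 87.0 CPM in young and 100.3 to 132 CPM in old cord (0.61 ± 0.11, adjusted p = 0.000293). Gusb spanned 17.3 to 23.5 and 26.6 to 34.6 CPM (0.61 ± 0.09, adjusted p = 2.45e-05). Neither gene overlapped between the groups, nor did Man2b1, at 46.0 to 52.9 and 64.9 to 82.05 CPM (0.61 ± 0.08, adjusted p = 1.14e-05), or Hexa, at 55.8 to 69.9 and 80.8 to 100.7 CPM (0.52 ± 0.10, adjusted p = 0.000784). Naglu rose by 0.46 ± 0.10 (adjusted p = 0.00455). Psap, the most abundant member, rose by 0.12 (adjusted p = 0.0471), a call that was lost without any of 19 single libraries.

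Library 6 of the old repopulated cord, though in neither of these groups, enters the common estimate of spread. Without it, 7.76% of all genes tested rose with age and 3.7% fell. Of the members 18 rose and 0 fell, with Cd63 (0.47, adjusted p = 1.3e-06 against 0.0602 with it), Cln3, Idua, Fuca1, Tpp1 and Ppt1 added. Cd63 and Tpp1 did not overlap between young and old cord in either case.

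**Figure D5:**
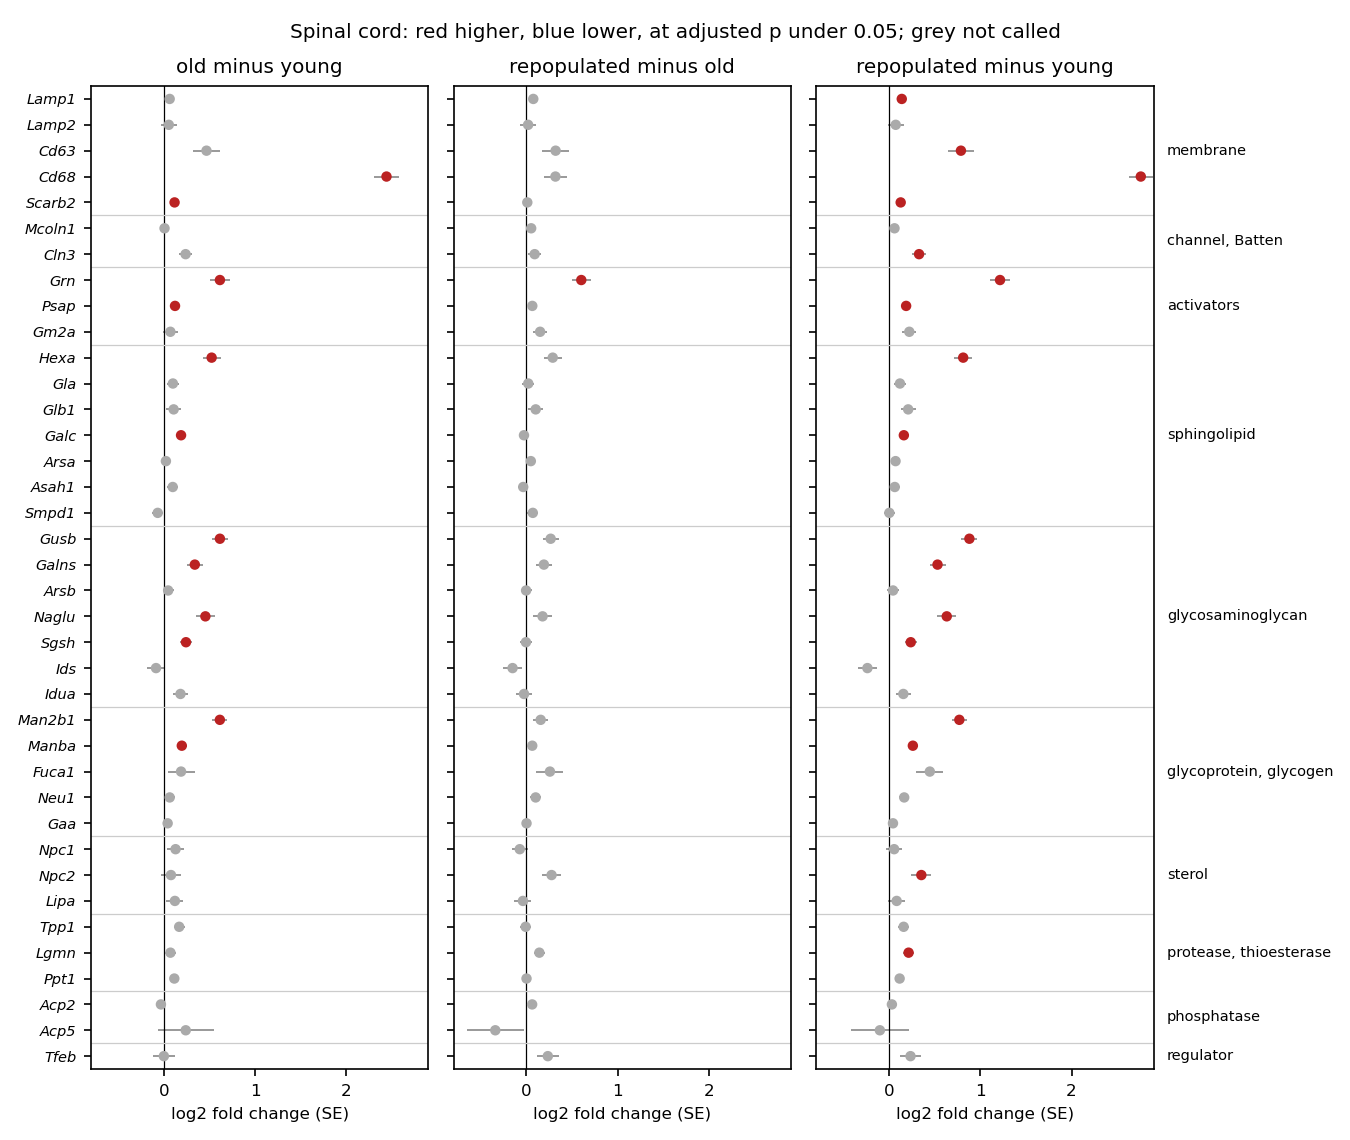
Log2 fold change (horizontal axis) of the 38 genes in spinal cord, by role, for old minus young, old repopulated minus old and old repopulated minus young, with bars of 1 SE, red for risen and grey for not passing the test. Cd68 lies apart from the other genes in both panels that compare with young cord, and Grn is the only red gene in the second.

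Microglial genes rose with age in the cord too. Of 12 such genes 7 rose, with summed levels of 235 to 337 CPM in young, 394.5 to 503.5 CPM in old and 445.4 to 866.5 CPM in old repopulated cord, and no gene of the list was at 0. Aif1 rose by 1.34, Cx3cr1 by 0.90 and Csf1r by 0.49, while P2ry12 gave 0.10 (adjusted p = 0.671). The part of the number of microglia in the rises of the members was not tested. Cd68, Gusb, Man2b1, Grn, Hexa and Naglu, which rose with age in cord, were higher in young microglia than in young cord by 5.00 to 8.49. The other risen members, Galc, Scarb2, Psap, Galns, Manba and Sgsh, were higher there by 1.03 to 3.41 in the fit without cord library 6. In that fit Lgmn and Arsb were higher in young microglia by 5.69 and 4.1. They did not pass the test with age in cord (0.07 and 0.05). Cd63, with a cord age difference of 0.47, was higher in young microglia by 2.28.

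Between old repopulated and old cord, 1 member passed the test, where 0.148% of all genes tested rose and 0% fell. This was Grn, at 112.9 ± 9.9 CPM in old cord and 171 ± 40.7 CPM in old repopulated cord, with ranges of 100.3 to 132 and 131.6 to 259.7 CPM that overlapped at their ends (0.60 ± 0.11, adjusted p = 0.0103). Without library 6, which held the highest value, Grn rose by 0.49 ± 0.08 (adjusted p = 0.00619). The next smallest adjusted p of the members was 0.583, for Gusb (0.27). At an unadjusted p under 0.05, edgeR gave 8 members higher and 0 lower, and the DESeq2 test gave 0 lower after adjustment. The share of all genes at the unadjusted threshold is not reported here, so the 8 cannot be set against it. The microglial list gave 1 of 12 genes risen in this comparison.

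Old repopulated cord against young cord gave 17 members higher and 0 lower, where 7.28% of all genes tested were higher and 2.78% lower, with medians of 0.16 and 0.01. In edgeR 1 member, Ids, was lower at an unadjusted p under 0.05, and the DESeq2 test gave 0 lower after adjustment. Cd68 was higher by 2.76 ± 0.13 (adjusted p = 2.72e-13), Grn by 1.22 ± 0.11 (adjusted p = 9.89e-09), Gusb by 0.88 (adjusted p = 8.12e-08), Hexa by 0.81 (adjusted p = 1.59e-06), Cd63 by 0.79 (adjusted p = 0.000481) and Man2b1 by 0.77 (adjusted p = 2.73e-07). The glycan class had 6 of 12 higher (median 0.25), the sphingolipid class 2 of 7 (median 0.12) and the sterol class 1 of 3 (Npc2, 0.35, adjusted p = 0.0367). Man2b1 again had 1 low library, library 4 at 52.07 CPM against a group median of 88.1 CPM. Without library 6, 9.21% of all genes tested were higher and 4.71% lower. The members then counted 23 higher and 1 lower, the latter being Ids (-0.14, adjusted p = 0.0464). Ids had a mean of 430 CPM in young cord, and stood at 185 CPM in library 6.

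The age difference was compared between the tissues in 1 fit over all 48 libraries. Brain against cord and sorted cells against whole tissue cannot be told apart in any comparison of the tissues here. The fit takes brain and cord libraries as independent, though whether they come from the same mice is not stated. It was lower in microglia than in cord for 18 members and higher for 1, where 15% of all genes tested were lower and 5.44% higher. In this fit the median of all genes was itself -0.15, against -0.01 with size factors or with total counts. With size factors the members counted 12 lower and 4 higher, and the share of all genes is not reported here. With total counts they counted 11 lower and 5 higher, where 6.68% of all genes tested were lower and 6.96% higher. The member higher in microglia was Gla (1.03 ± 0.16, adjusted p = 3.12e-06). The lowest values were those of Cd68 (-2.53, adjusted p = 5.3e-19), Grn (-0.74), Hexa (-0.72) and Arsb (-0.68). Cd68, Scarb2, Cln3, Grn, Hexa, Arsb, Naglu, Man2b1, Lgmn and Acp2 passed the test in all 5 scalings and tools tried. Of these, Cd68, Grn, Hexa, Naglu and Man2b1 had risen with age in cord and not passed the test in microglia, though Man2b1 passed there in some alternative fits.

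The repopulation difference was larger in microglia than in cord for 8 members and smaller for 0, where 3.49% of all genes tested were larger and 7.54% smaller. The 8 were Acp5 (3.79), Arsb (1.05, adjusted p = 6.7e-10), Ids (0.58), Man2b1 (0.53), Glb1 (0.50), Gm2a (0.45), Psap (0.32) and Lamp1 (0.22). Of these, 3 were glycan hydrolases, 1 was a sphingolipid hydrolase and 0 were sterol genes. The median of all genes was -0.10 here, and -0.21 with total counts. Total counts gave 7 larger and 5 smaller members, where 2.55% of all genes tested were larger and 14.8% smaller. At an unadjusted p under 0.05, edgeR gave 4 members smaller in microglia (Smpd1, Sgsh, Neu1 and Tfeb), and 0 with size factors after adjustment. For the unadjusted threshold the share of all genes is not reported here. Gm2a, Glb1, Arsb and Acp5 passed the test in all 5 scalings and tools. Without cord library 6, 16 members were larger in microglia, where 7.01% of all genes tested were. The difference of Grn was 0.18 (adjusted p = 0.466): it rose in both tissues, and the rises were not shown to differ.

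The other lysosomal genes gave 9 risen and 0 fallen of 53 with age in cord (median 0.05), 0 and 0 with repopulation (median 0.02), and 16 higher and 0 lower in repopulated against young cord (median 0.06). Among those that led the age comparison were Slc11a1, a metal transporter of phagosomes (1.55, adjusted p = 1.33e-09), and Laptm5, a lysosomal membrane protein of blood cells (1.18). The age difference of both was also lower in microglia than in cord, at -1.36 and -1.65.

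The spread between libraries differed among groups and genes. The median coefficient of variation of the 38 genes in CPM was 8.34% in young, 10.3% in old and 11.97% in old repopulated microglia. In cord it was 7.24% in young, 5.6% in old and 13.9% in old repopulated libraries. By gene it was lowest for Scarb2, at 4.88%, and highest for Acp5, at 48.3%.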

How the data were processed

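Libraries were made from polyadenylated RNA with an unstranded kit, per the labels' protocols, so reads of overlapping or antisense genes cannot be told apart. STAR 2.5.2b and the build GRCm38.p5 are named in the submitters' processing notes. No source used here gives the counting tool or annotation. The authors deposited read counts per gene, used for all tests, and TPM values, used for levels between genes. The deposited TPM equal counts per length to within 0.0005.

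CPM were computed from the counts with TMM effective library sizes, within each tissue. Genes passing filterByExpr (minimum count 10, minimum total 15) were fitted with edgeR 4.0.16 (R 4.3.3): TMM scaling, quasi-likelihood test, Benjamini-Hochberg adjustment over all genes tested, threshold 0.05. Each tissue was fitted over its 24 libraries (14382 genes in microglia, 18271 in cord), and tissue differences over all 48 (19110 genes). The scripts were tested on simulated data. Alternatives were DESeq2 1.42.0 size factors and test, total-count scaling, other filters, a block for the replicate number, limma 3.58.1 on log2(TPM + 1) or log2(TPM + 0.1), fits of 2 groups, and leaving out libraries.

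All 38 members are named. Of 53 other lysosomal genes, up to 4 with the smallest adjusted p per comparison and fixed genes such as Ctsa and Mitf are named, apart from some not reported here, and values per library are given for up to 4 members with the smallest adjusted p per comparison, for Acp5, and for further members chosen after their values were seen. The members and lists were chosen with earlier results of these data known. Within a tissue, libraries with the same replicate number did not deviate together (median correlation 0.003 in microglia and -0.04 in cord, over 0.1 in 5 and 7 of 24 pairs). Brain and cord libraries were not compared in this way. No library duplicated another: chi-square per gene was 3.40 or more in 168 pairs.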

Additional observations from a re-analysis of the deposited data

Results flagged for a closer look

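A library was singled out where its gap to the next library of its group of 8, divided by the range of the group, exceeded Dixon's critical value at 95%. Chance gives about 1 such group in 20. Of 228 groups, each a gene in the 8 libraries of a condition, 30 held such a library, and 22 of these were the old repopulated cord library 6. In that library the level was the highest of its group for Cd63 (278.1 CPM), Mcoln1 (79.07), Cln3 (31.33), Grn (259.7), Psap (2273), Gm2a (176.6), Hexa (173.2), Glb1 (44.75), Smpd1 (121.1), Galns (16.16), Fuca1 (130.6), Neu1 (79.26), Npc2 (277.4), Lgmn (316.4), Acp2 (94.73) and Tfeb (39.44). It was the lowest for Asah1 (75.82 CPM), Arsb (69.77), Ids (185.0), Idua (14.54), Npc1 (78.57) and Tpp1 (77.51). Fuca1 stood farthest from its group, with 46.2 to 62.4 CPM in the other 7 libraries. The library also had the fewest genes detected in its group and a raised share of ribosomal protein reads.

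The other 8 were spread over genes and groups. Man2b1 was low in repopulated microglia library 7 (2251 CPM, 4015 to 4583 in the others) and in repopulated cord library 4 (52.07 CPM, 79.05 to 93.55 in the others). Acp5 was high in old microglia library 4 (8.332 CPM) and in repopulated microglia library 5 (169.1 CPM). Npc2 was high in young microglia library 7 (796.3 CPM) and in repopulated microglia library 1 (1899 CPM), Gla in young microglia library 4 (13.38 CPM) and Tfeb in repopulated microglia library 3 (75.32 CPM, 53.13 to 58.5 in the others).

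The difference with age was tested between microglia and cord, and 19 members passed, where 15% of all genes tested were lower in microglia and 5.44% higher. It was higher in microglia for Gla (1.035). It was lower for Cd68 (-2.533), Grn (-0.7441), Hexa (-0.7154), Arsb (-0.6775), Npc1 (-0.5784), Man2b1 (-0.5595), Scarb2 (-0.549), Naglu (-0.5365), Tfeb (-0.4981), Cln3 (-0.4967), Sgsh (-0.496), Lgmn (-0.4642), Acp2 (-0.459), Gusb (-0.4542), Tpp1 (-0.4239), Arsa (-0.3424), Idua (-0.3359) and Smpd1 (-0.2609). Of the lower members, Arsa, Smpd1, Gusb, Sgsh, Idua, Npc1, Tpp1 and Tfeb did not pass in all 5 scalings and tools. The difference with repopulation was larger in microglia for Acp5 (3.789), Arsb (1.046), Ids (0.5796), Man2b1 (0.5329), Glb1 (0.4995), Gm2a (0.4519), Psap (0.321) and Lamp1 (0.2212). Here 3.49% of all genes tested were larger and 7.54% smaller, and Lamp1, Psap, Ids and Man2b1 did not pass in all 5. The median of all genes in this fit was -0.149 for age and -0.105 for repopulation.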

How the results depend on the processing

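On log2(TPM + 0.1) and log2(TPM + 1), the repopulated minus old comparison in microglia gave 9 members higher and 10 lower and 4643 and 4779 genes in all. Signs turned there for Scarb2 (-0.0381 and -0.0380) and Gaa (-0.0190 and -0.0189). Repopulated minus young gave 14 higher, 15 lower and 7478 and 7378 genes, with turned signs for Cd68 (-0.1051, -0.1050), Hexa (-0.0126 in both), Asah1 (-0.1127, -0.1123), Manba (-0.2734, -0.2680), Neu1 (-0.2443, -0.2391), Lipa (-0.1924, -0.1914), Tpp1 (-0.3108, -0.3101), Lgmn (-0.2355 in both) and Ppt1 (-0.0422, -0.0421). Total-count scaling gave 8 and 9 lower members in these comparisons, where 19.3% and 26.0% of all genes tested were lower. In cord, TPM gave 12 and 13 genes in all for repopulated minus old, where the DESeq2 test gave 66, and 10 higher members and 1003 and 1030 genes for repopulated minus young. Fits of only the 2 groups gave 1844 genes for cord old minus young and 1211 for repopulated minus young.

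For the tissue difference with age, members higher were 4 with size factors, TPM or without cord library 6, 3 without a filter and 5 with total counts, which gave 11 lower and 2606 genes (TPM 2076). For repopulation, TPM gave 4 higher and 2 lower, where 1.22% of all genes tested were higher and 6.43% lower. Total counts gave 5 lower and 3307 genes, and leaving out cord library 6 gave 16 higher. Between young microglia and young cord, TPM and total counts gave 4 members lower, where 70.3% and 64.5% of all genes tested were lower. Mcoln1 (-0.2465, -0.8328 and -0.5793) and Gaa (-0.0595, -0.6548 and -0.3959) turned sign with size factors, TPM and total counts. The cause of these changes was not tested.

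Leaving out each library in turn gave ranges, in the order members higher, members lower and all genes. They were 9 to 10, 6 to 6 and 2658 to 3281 for microglia old minus young, 17 to 20, 0 to 0 and 2009 to 2599 for repopulated minus old, and 22 to 23, 4 to 6 and 4290 to 4772 for repopulated minus young. In cord they were 8 to 18, 0 to 0 and 943 to 2109, then 1 to 1, 0 to 0 and 16 to 57, then 13 to 23, 0 to 1 and 1507 to 2561. The first and last of these had their highest counts without the old repopulated library 6. The count of all genes between old repopulated and old cord was lowest without old library 6 (16) or 8 (17) and highest without old repopulated library 7 (57). With the replicate number as a block, the counts of members were 9 and 6, 18 and 0, and 23 and 5 in microglia and 9 and 0, 1 and 0, and 13 and 0 in cord, where Scarb2, Psap and Manba (old minus young) and Lamp1, Scarb2, Npc2 and Lgmn (repopulated minus young) lost their call. The labels give no pairing, so the numbers are shared names only.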
